A study of Mus musculus with 4 samples.

Results

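The proteasome is the protease complex that degrades ubiquitin-tagged proteins and cuts them into peptides. Its 20S core is a barrel with outer rings of alpha subunits and inner rings of beta subunits, and 3 of the beta subunits carry the cutting sites. In cells of the immune system, and in other cells under interferon-gamma, these catalytic subunits are exchanged for the immunoproteasome subunits Psmb8, Psmb9 and Psmb10, which changes the set of peptides that are loaded on MHC class I. The 19S cap receives and unfolds the substrates, PA28 and PA200 are other caps, and dedicated chaperones assemble both parts.

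The 48 genes described here are all genes of the exon table, read on the mouse assembly mm9, whose symbol is Psma, Psmb, Psmc, Psmd, Psme, Psmf or Psmg followed by a number, out of 20804 genes counted. They hold 7 alpha and 7 beta genes of the constitutive core, 3 immunoproteasome catalytic genes, the testis form Psma8 and the thymus form Psmb11. The cap is represented by 6 ATPase and 11 non-ATPase genes. Further members are both PA28 alpha and beta genes (Psme1 and Psme2), the activators Psme3 and Psme4, the inhibitor Psmf1, and 7 chaperone genes (Psmg1 to Psmg4, Psmd5, Psmd9 and Psmd10). The choice by symbol used no measured value, although earlier results of these data were known when it was made.

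Reads came from total tissue of small intestine (jejunum, by the study's methods) and colon (distal colon) of C57BL/6 mice, aged 9 to 10 weeks, with no treatment named, so that the tissue is the only labelled difference within a protocol. Each tissue was sequenced once by a cDNA fragmented protocol (polyadenylated RNA, SMART synthesis, both strands) and once by an RNA fragmented protocol (Whole Transcriptome Analysis Kit, strand-specific). The RNA selection of the RNA fragmented libraries is given as depletion of ribosomal RNA in the labels and as enrichment of polyadenylated RNA in the study's methods, so it is uncertain what any value set between the protocols compares in this respect. There was 1 library per tissue and protocol in the data analysed here, and the labels do not say how many animals a library holds or whether the protocols shared animals. All values below are from bulk tissue, in which fewer cells of a type and less RNA per cell cannot be told apart.

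Uniquely placed reads numbered 22484041 and 24798934 in small intestine and colon by cDNA fragmentation, and 2035386 and 3478387 by RNA fragmentation. These were 29.01% and 29.77% of all reads by cDNA fragmentation and 5.59% and 9.28% by RNA fragmentation. The cDNA fragmented totals equal those that the study gives. The RNA fragmented totals, 36419942 and 37466674 reads, lie far below those of the study's RNA fragmented libraries. It is thus uncertain whether these are the libraries that the study describes under that protocol. Marker genes went with the labels, as all 6 small intestine markers and all 6 colon markers were called in their tissue by the test described below. The libraries differed in other respects too. Xist, which is transcribed from the inactive X chromosome, had 1751, 31, 9 and 5 reads in the order small intestine and colon by cDNA fragmentation, then small intestine and colon by RNA fragmentation, and the Y-linked gene Uty had 0, 451, 128 and 341 reads. Such reads mark female tissue in the cDNA fragmented small intestine library and male tissue in the others, so that in the cDNA fragmented pair sex and tissue cannot be told apart. In small intestine sex and protocol cannot be told apart either, and its protocols did not use the same animal. The study describes its datasets as both tissues of the same individuals, which these reads do not bear out for the cDNA fragmented pair. Both RNA fragmented libraries held Y-linked reads. Pancreatic acinar transcripts (16 genes) had a median log2 ratio of colon over small intestine of 6.16 in the cDNA fragmented pair and -7.76 in the RNA fragmented pair. Smooth muscle genes were higher in colon (6 of 6 called). The part of these differences in the results was not tested.

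By cDNA fragmentation proteasome genes took 0.73% of all unique placements in small intestine and 0.779% in colon (164179 and 193275 reads), and by RNA fragmentation 0.24% and 0.305% (4886 and 10594 reads). Levels are given in RPKM, reads per kilobase of exon and per 1000000 uniquely placed reads. Intervals in brackets are exact 95% intervals for counting error only, since repeats of these libraries were not analysed here, and reads that share a start may be copies from the amplification. The floor set by a count of 0 was 3 reads.

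The catalytic subunits gave the clearest difference between tissues. Psmb8 replaces Psmb5 (chymotrypsin-like site), Psmb9 replaces Psmb6 (caspase-like site) and Psmb10 replaces Psmb7 (trypsin-like site) in the immunoproteasome. Psmb8 and Psmb9 were read more in small intestine by both protocols. Psmb5, Psmb6 and Psmb7 were read more in colon by both, the side on which most genes lay in each pair. To show what was counted, 30 bases of mm9 are given from the start point with the most sense reads over the 4 libraries among those with 30 bases left in their block, on the strand of the gene, in coding sequence. The capital marks the first base of the reads.
Psmb8: Cgggggatgggcctctccatgggcagcatg
Psmb9: Tgctggtgtggaccatcgagtcatcctggg
Psmb10: Gggcatcactggtcgtgggcggggttgatt
Psmb7: Agcaatggctgtgtttgaagataagtttag
These windows lie at chr17:34337165-34337194 on the plus strand in exon block 4 of 6 (Psmb8), at chr17:34319200-34319229 on the minus strand in the last of 6 blocks (Psmb9), at chr8:108460835-108460864 on the minus strand in block 5 of 8 (Psmb10) and at chr2:38468965-38468994 on the minus strand in block 6 of 8 (Psmb7). By cDNA fragmentation 10 reads from small intestine and 7 from colon began at the Psmb8 base, and 13 and 3 at the Psmb9 base. In the RNA fragmented libraries 108 of 296 Psmb10 reads in small intestine and 87 of 312 in colon began at the single base shown, and 27 of 88 and 34 of 216 Psmb7 reads did so at theirs.

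Psmb8 (ENSMUSG00000024338.8, mm9 chr17:34335140-34338399, plus strand, 6 exon blocks within the MHC region) had 4941 and 1178 reads in small intestine and colon by cDNA fragmentation, and 65 and 11 by RNA fragmentation. This equals 180 RPKM [175 to 185] against 38.8 [36.7 to 41.1], and 26.1 RPKM [20.2 to 33.3] against 2.59 [1.29 to 4.63]. Both small intestine libraries thus lay above the colon library of their protocol, by 4.63-fold [4.34 to 4.93] and 10.1-fold [5.29 to 21.2], and the intervals did not overlap. On the log2 scale of colon over small intestine these are differences of -2.21 and -3.29. With each start point counted once in place of reads, they were -0.904 and -2.92. The surplus ran along the whole gene, as 6 of 6 exon blocks were higher in small intestine by either protocol, with block ratios between 3.29 and 5.75 in the cDNA fragmented pair. Another gene model, Gm20496, overlaps blocks 2 to 4. Block 6, which it does not overlap, had 1583 against 381 reads (4.58-fold) and 7 against 2 reads (5.98-fold).

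Psmb9 (ENSMUSG00000024337.8, mm9 chr17:34319044-34324275, minus strand) lies near Psmb8 in the same region. It had 2567 and 1236 reads in small intestine and colon by cDNA fragmentation, and 73 and 22 by RNA fragmentation, or 142, 61.8, 44.5 and 7.85 RPKM. Small intestine was again higher by either protocol, 2.29-fold [2.14 to 2.45] and 5.67-fold [3.48 to 9.60]. On the same log2 scale its differences of -1.19 and -2.49 were -0.54 and -2.35 with start points. In the cDNA fragmented pair 6 of 6 blocks were higher in small intestine, and in the RNA fragmented pair 4 of the 5 blocks that held reads. Reads across exon-exon junctions, which were matched to another reference and are not in the counts above, numbered 23 and 7 for Psmb8 and 25 and 7 for Psmb9 in small intestine and colon by cDNA fragmentation. This is 3.62-fold [1.51 to 10.0] and 3.94-fold [1.66 to 10.8] per uniquely placed read. The RNA fragmented libraries held 1 such read for Psmb8 and none for Psmb9.

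Psmb10 (ENSMUSG00000031897.8, chromosome 8 and thus outside the MHC region) did not share this pattern. Its levels were 142 and 157 RPKM in small intestine and colon by cDNA fragmentation (4046 and 4943 reads) and 115 and 70.6 RPKM by RNA fragmentation (296 and 312 reads). Small intestine was 1.62-fold higher [1.38 to 1.91] in the RNA fragmented pair, whereas colon was 1.11-fold higher [1.06 to 1.16] in the cDNA fragmented pair, an order that other scalings turned (log2 ratio of colon over small intestine 0.15, against -0.07 with trimmed means and -0.18 with the median of ratios). Of the RNA fragmented reads, 36.5% in small intestine and 27.9% in colon shared 1 start, so the counting intervals understate the error of this gene. The reads of all 3 genes are drawn by exon block in the plot of reads by block.

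**Figure D1:**
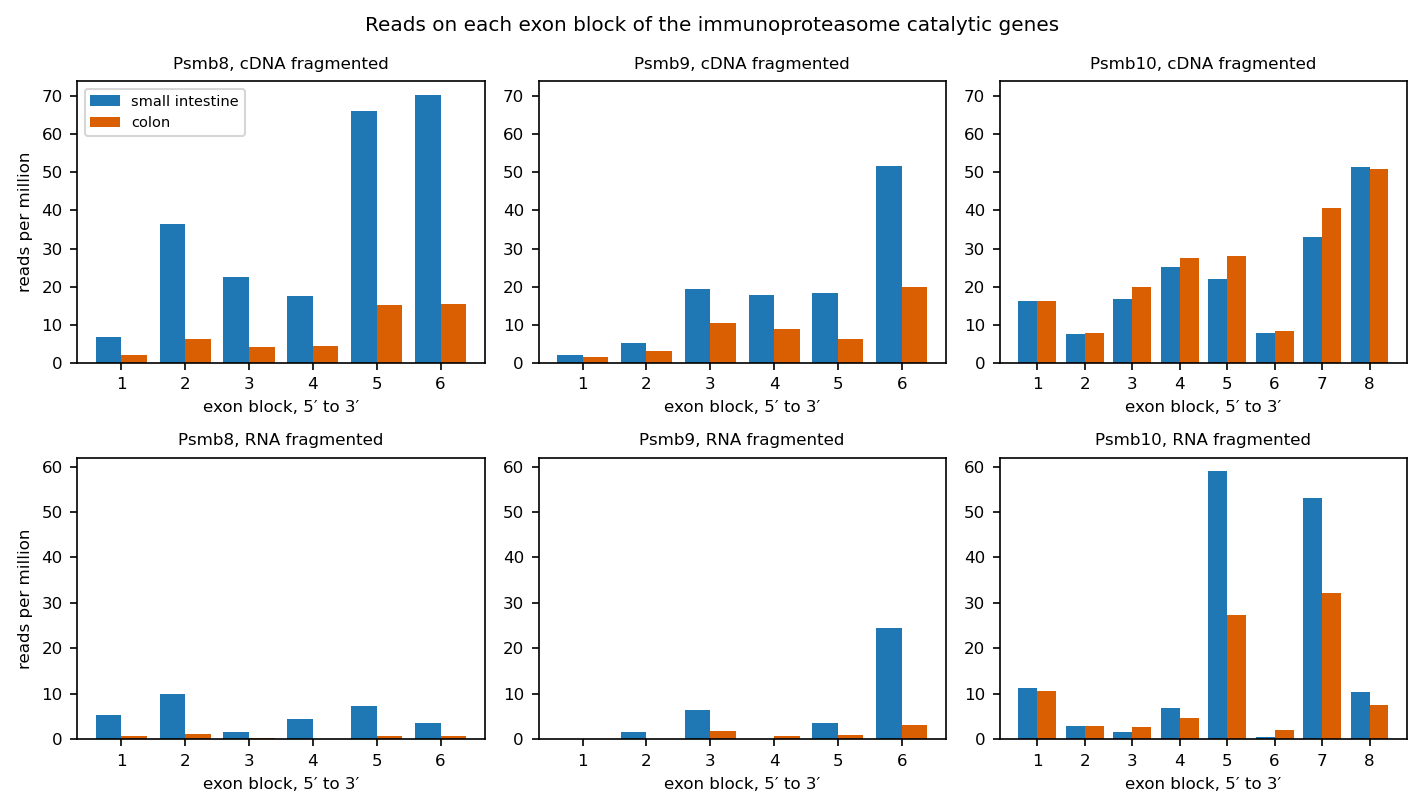
Reads per 1000000 uniquely placed reads (y axis) on each exon block (x axis, 5′ to 3′) of Psmb8, Psmb9 and Psmb10, for small intestine (blue) and colon (orange), with the cDNA fragmented libraries above and the RNA fragmented libraries below. Small intestine exceeds colon in all 6 blocks of Psmb8 by either protocol, and the RNA fragmented reads of Psmb10 pile up on blocks 5 and 7.

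The constitutive counterparts lay on the colon side, as did 66.3% of all genes in the cDNA fragmented pair and 64.9% in the RNA fragmented pair. None of these counterparts was called by the model described below. Psmb5 had 1681 and 3040 reads (85.8 and 141 RPKM) in small intestine and colon by cDNA fragmentation and 61 and 165 reads (34.4 and 54.5 RPKM) by RNA fragmentation. Colon was higher by 1.64-fold [1.54 to 1.74] and 1.58-fold [1.17 to 2.16]. For Psmb6 the levels were 456, 628, 34.1 and 62.2 RPKM, and for Psmb7 they were 72.6, 83.5, 44.6 and 64.1 RPKM. Colon lay above small intestine in each of these pairs and all their intervals excluded equality, but the cDNA fragmented difference of Psmb7 (0.20 on the log2 scale) fell to -0.02 with trimmed means and -0.12 with the median of ratios. These scalings shifted every gene towards small intestine, by -0.22 and -0.32 in the cDNA fragmented pair and by -0.32 and -0.34 in the RNA fragmented pair. The directions of Psmb5, Psmb6, Psmb8 and Psmb9 held in both pairs under both scalings. Of the 32-base stretches of Psmb5 75.7% occur again elsewhere in the genome, outside the exon reference to which reads were matched, against 0% for Psmb8, Psmb9 and Psmb10.

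The ratio of each immunoproteasome gene to its counterpart does not depend on the scaling of a library. Psmb8 over Psmb5 was 2.09 [1.98 to 2.21] in small intestine and 0.276 [0.258 to 0.295] in colon in the cDNA fragmented libraries, and 0.759 [0.527 to 1.09] and 0.0475 [0.0233 to 0.0872] by RNA fragmentation. Between tissues, with counting intervals approximated on the log scale, the small intestine ratio was 7.59 times the colon ratio [6.95 to 8.28] by cDNA fragmentation and 16.0 times [7.91 to 32.3] by RNA fragmentation. Start points in place of reads brought the first value down to 2.19, as a start point counts once however often it is read. By RNA fragmentation Psmb8 had 36 and 8 start points in small intestine and colon, and Psmb5 had 36 and 83, which lowers the second value too.

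For Psmb9 over Psmb6 the ratios were 0.311 and 0.0985 in small intestine and colon by cDNA fragmentation, and 1.30 and 0.126 by RNA fragmentation. Small intestine exceeded colon by 3.16 times [2.94 to 3.39] and 10.3 times [5.98 to 17.8], and by start points by 1.41 and 4.81 times. Psmb10 over Psmb7 differed by 1.04 times [0.961 to 1.12], an interval that holds equality, in the cDNA fragmented pair and by 2.33 times [1.74 to 3.13] in the RNA fragmented pair. Over all catalytic genes together, the immunoproteasome genes took 43% of the summed RPKM in small intestine and 23.2% in colon by cDNA fragmentation, and 62.1% and 31% by RNA fragmentation. Within a tissue this share was larger by the RNA fragmented protocol, so only its order between tissues was shared. Most of the immunoproteasome sum by RNA fragmentation was Psmb10, with 115 of 185 RPKM in small intestine and 70.6 of 81.1 RPKM in colon.

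**Figure D2:**
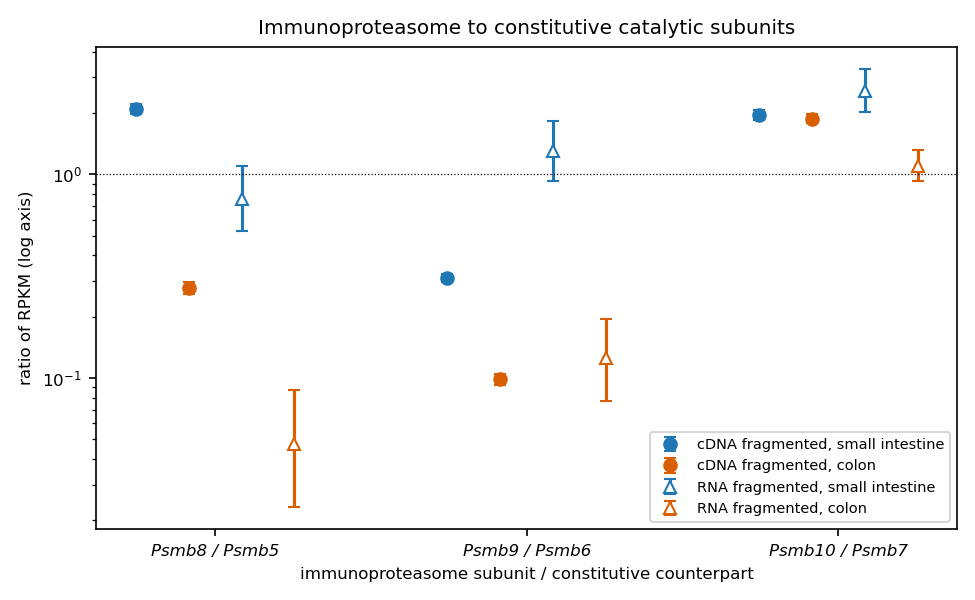
Ratio of RPKM (log axis) of each immunoproteasome catalytic gene to its constitutive counterpart (x axis) in the 4 libraries, with exact 95% counting intervals as bars. Small intestine (blue) lies above colon (orange) for Psmb8 / Psmb5 and Psmb9 / Psmb6 by both protocols, and for Psmb10 / Psmb7 the cDNA fragmented libraries lie side by side (1.95 and 1.88).

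PA28 alpha and beta form the ring that opens the core for peptides and are induced by interferon-gamma as well. Psme1 and Psme2 are neighbours on chromosome 14. Psme2 had 528 and 316 RPKM in small intestine and colon by cDNA fragmentation (11591 and 7644 reads) and 110 and 77.1 RPKM by RNA fragmentation (218 and 262 reads). Psme1 had 128, 100.3, 69.6 and 38.3 RPKM in the same order. Small intestine was higher in all 4 comparisons, by 1.67-fold [1.63 to 1.72] and 1.42-fold [1.18 to 1.71] for Psme2 and by 1.28-fold [1.22 to 1.34] and 1.82-fold [1.45 to 2.27] for Psme1. Junction reads had the same order, with 454 against 240 for Psme2 and 92 against 59 for Psme1 in the cDNA fragmented pair. Of the Psme2 stretches of 32 bases 59.7% have a copy elsewhere in the genome, and Psme1 overlaps the gene model Fam158a. In the small intestine Psme2 had the highest RPKM of all 48 genes by cDNA fragmentation.

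The constitutive core and cap genes differed less between tissues. A log2 ratio of colon over small intestine was computed after adding 0.1 RPKM to each level, and the median gene of the genome is the reference for it, since that gene was itself shifted towards colon by 0.37 in the cDNA fragmented pair (14193 genes with at least 20 reads) and by 0.40 in the RNA fragmented pair (11934 genes). Over the 31 constitutive genes the median was 0.18 in the cDNA fragmented pair (range -0.35 to 0.91) and 0.52 in the RNA fragmented pair (range -2.04 to 1.33). In the first pair 23 of 31 lay below the median of all genes, in the second 12 of 31, and 11 did so in both. The order of the constitutive genes against all genes was thus not shared by the protocols. Another scaling of the libraries turned the sign of the smaller median, to -0.04 with trimmed means and to -0.14 with the median of ratios.

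Within the core, the alpha genes had medians of 0.15 and 0.63 in the cDNA and RNA fragmented pairs, the beta genes without a catalytic site 0.38 and 0.63, and the constitutive catalytic genes 0.46 and 0.66. All 14 constitutive core genes were above 0 in the RNA fragmented pair, though Psma7 only by 0.004, and 11 of 14 in the cDNA fragmented pair. Over all genes with at least 20 reads in the pair, 64.9% and 66.3% were above 0 in that order. With trimmed means the counts of core genes were 12 and 8, and with the median of ratios 12 and 5. Psma3 had the largest of these ratios, 1.33, in the RNA fragmented pair. The exceptions in the other pair were Psma4 (-0.35), Psma5 (-0.09) and Psma6 (-0.03). Of the ATPases of the cap 3 of 6 were higher in colon by either protocol. Of its non-ATPase genes 7 of 11 were so by cDNA fragmentation and 6 of 11 by RNA fragmentation, beside 66.3% and 64.9% of all genes. Psmd14, the deubiquitinating subunit, was lower in colon in both pairs (-0.29 and -0.47), Psmd7, its partner in the cap, had 0.57 and -1.46, and Psmd4, a ubiquitin receptor, was higher in colon in both (0.91 and 0.48).

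Counted by their intervals under scaling by uniquely placed reads, 17 of the 48 genes were higher in colon by both protocols and 6 in small intestine by both (Psmb8, Psmb9, Psmd12, Psmd14, Psme1 and Psme2). In 4 genes the protocols gave opposite directions, and in 21, with Psme3, Psme4 and the inhibitor Psmf1 among them, at least 1 interval held equality. All of the 17, 6 and 4 genes were among the 45 with at least 20 reads in each pair, and of the 11754 such genes of the genome 31.6%, 12.2% and 11.3% fell into these classes.

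Of the 7 chaperone genes 6 lay on the colon side in either pair, as did 66.3% and 64.9% of all genes, and none was called by the model described below. Among the cap chaperones, Psmd10 (gankyrin) had 56.4 and 85.1 RPKM in small intestine and colon by cDNA fragmentation and 7.09 and 20.3 RPKM by RNA fragmentation. Psmd5 had 11.1, 18.98, 11.3 and 23.9 RPKM, and Psmg3, a chaperone of the core, had 41.0, 65.0, 7.61 and 16.5 RPKM. Colon was higher in each pair, for Psmd10 by 1.51-fold [1.43 to 1.60] and 2.87-fold [1.78 to 4.83]. Psmd9 reached 0.90 on the log2 scale in the cDNA fragmented pair and -0.14 in the RNA fragmented pair, where it had 31 and 48 reads. Psmg4 had the largest log2 ratio towards colon in the cDNA fragmented pair, 1.05, and only 3 and 7 reads in the RNA fragmented one. Psmg1 had -0.14 and 1.42, from 11 and 51 reads in the RNA fragmented pair.

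**Figure D3:**
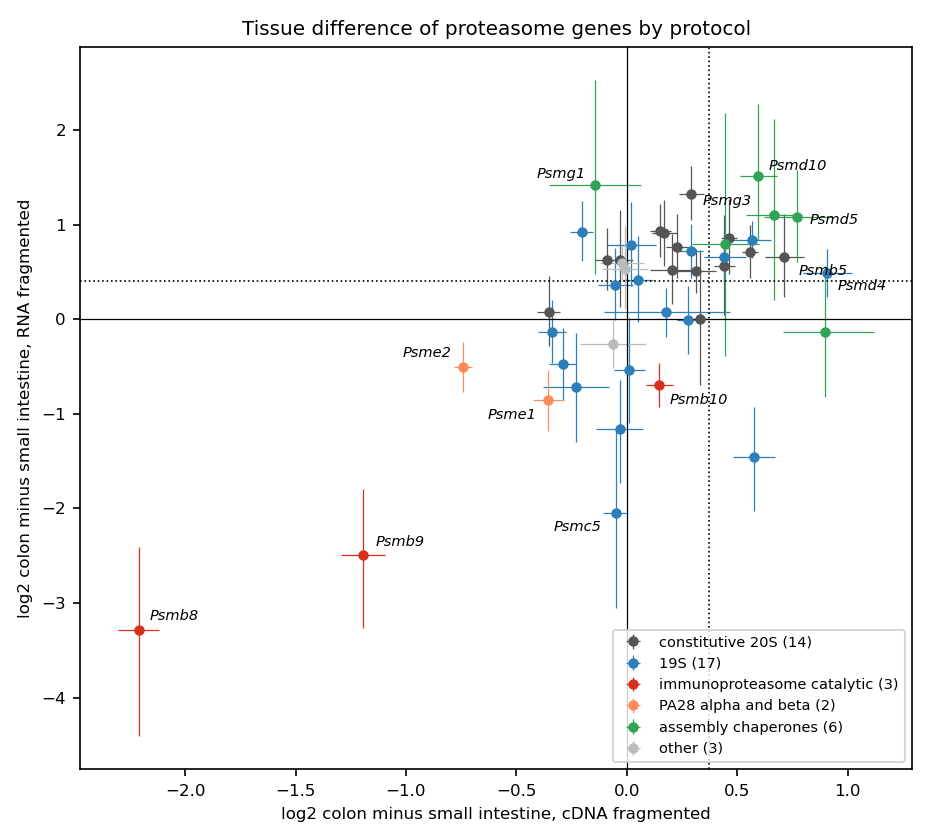
Log2 ratio of colon over small intestine of the 45 genes with at least 20 reads in each pair of libraries, by cDNA fragmentation (x axis) and by RNA fragmentation (y axis). Points are genes coloured by role, bars are exact 95% counting intervals and dotted lines mark the median of all genes (0.37 and 0.40). Psmb8 and Psmb9 lie apart at the lower left, and the other genes lie between -0.74 (Psme2) and 0.91 (Psmd4) on the x axis.

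The genes were then held against rules applied to the whole genome. By a 3-fold rule with 1 RPKM added to the divisor, Psmb8 alone passed towards small intestine in the cDNA fragmented pair (1 of 48, against 2.82% of 15122 genes), and Psmb8, Psmb9 and Psmc5 in the RNA fragmented pair (3 of 45, against 3.83% of 13093 genes). No member passed towards colon, where 3.25% and 6.4% of all genes did. A rule of 1.5-fold in the same direction by both protocols was passed towards small intestine by Psmb8 and Psmb9 (2 of 45, against 8.25% of 11754 genes). It was passed towards colon by Psmb5, Psmd5, Psmd10 and Psmg3 (4 of 45, against 25.1%). Within a single protocol, 8 of 47 genes were 1.5-fold higher in colon by cDNA fragmentation, against 42% of 14193 genes, and 3 of 47 in small intestine, against 15.8%. By RNA fragmentation 20 of 45 were higher in colon, against 42.6% of 11934 genes, and 8 of 45 in small intestine, against 19.3%. With trimmed-mean scaling none of the 4 genes shared by both protocols passed towards colon. Under these rules the shares of members lay below those of all genes, apart from the RNA fragmented 3-fold rule towards small intestine, where 3 genes are 6.67%, and the RNA fragmented 1.5-fold rule towards colon, where 20 genes are 44.4%.

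Psmc5, an ATPase of the cap, passed the 3-fold rule by one protocol only. It had 172 and 166 RPKM in small intestine and colon by cDNA fragmentation and 14.2 and 3.38 RPKM by RNA fragmentation. The latter rest on 37 and 15 reads, of which 16 and 1 lay on the last of 11 blocks. The other 10 blocks together had 21 and 14 reads, 2.56-fold more in small intestine per uniquely placed read [1.24 to 5.45].

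A linear model in limma with voom weights used the protocol as a term, trimmed-mean scaling and Benjamini-Hochberg adjustment over 14136 genes. Its residual has 1 degree of freedom, which measures how far the protocols disagree and not the spread between animals, and its p-values rest on the spread of all genes. The log2 difference of colon minus small intestine was -2.71 for Psmb8 (SE 0.45, 95% interval -3.66 to -1.76, limma adjusted p = 0.00027) and -1.81 for Psmb9 (SE 0.45, -2.75 to -0.86, limma adjusted p = 0.0098). They were the members called of 47 tested, 2 towards small intestine, where 6.45% of all genes were called, and 0 towards colon, where 6.69% were. By an unadjusted p under 0.05, 4 of 47 members passed towards small intestine, against 11.6% of all genes, and 0 towards colon, against 14%. Limma on log2 RPKM without weights gave the same counts of 2 and 0. Psme2 (-0.91, SE 0.38, limma adjusted p = 0.13) and Psme1 (-0.82, SE 0.39, limma adjusted p = 0.19) were the other members with an unadjusted p under 0.05. Psmb10 had a difference of -0.50 (SE 0.39, limma adjusted p = 0.47). With start points in place of reads Psmb8 remained called and Psmb9 did not (limma adjusted p = 0.039 and 0.098).

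None of the 31 constitutive genes was called. Their differences had a median of -0.001, beside 0.12 over all genes, and ran from -0.76 (Psmc5) to 0.47 (Psma3), and the smallest limma adjusted p was 0.35. The 95% intervals of single constitutive genes reached from -1.76 to 1.29 at their widest, so that sizeable differences in single genes remained within them.

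Genes next in the pathway were read for the same comparison, from lists written with earlier results of these data known. Over all genes 6.45% were called towards small intestine and 6.69% towards colon. Of 10 genes of MHC class I presentation, 4 were called higher in small intestine and 0 in colon. They were B2m, the light chain of class I (-1.75, limma adjusted p = 0.0019), Tap1, a peptide transporter subunit encoded beside Psmb9 (-1.79, limma adjusted p = 0.0043), Nlrc5, a transactivator of class I genes (-1.93, limma adjusted p = 0.020), and Erap1, a peptide-trimming peptidase (-1.32, limma adjusted p = 0.025). Calr and Pdia3, chaperones of the endoplasmic reticulum in general, had -0.20 and -0.10, the smallest differences of the list. H2-K1 (-0.69), H2-D1 (-0.75), Tap2 (-0.88) and Tapbp (-0.96) were not called either. By level, 0 of the 10 genes were higher in colon in the cDNA fragmented pair and 2 in the RNA fragmented pair. Among genes of the interferon-gamma signal, the receptor-bound kinase gene Jak2 (-1.33, limma adjusted p = 0.018) was called higher in small intestine, while Irf1 (-0.31) and the receptor gene Ifngr1 (0.71) were not called. The calls of B2m, Nlrc5, Erap1 and Jak2 did not hold under every alternative setting, whereas that of Tap1 did. In levels, Tap1 had 12.1 and 4.77 RPKM in small intestine and colon by cDNA fragmentation and 40.1 and 11.8 RPKM by RNA fragmentation.

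Proteasome partners outside the 48 symbols showed no call. Of 8 associated and assembly factors, among them Pomp, the maturation factor of the core, none was called in either direction, nor were any of 10 genes of ubiquitin and its delivery or of 4 genes in the control of proteasome genes by Nrf1. At an unadjusted p under 0.05 in limma, 1 of the 8 (Uchl5) and 1 of the 4 (Ddi2) were higher in small intestine, where 11.6% of all genes were. Pomp had 534 and 512 RPKM in small intestine and colon by cDNA fragmentation and 31.5 and 32.1 RPKM by RNA fragmentation. Nfe2l1, which encodes Nrf1, had 2.76, 6.11, 32.9 and 37.9 RPKM.

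Some leukocyte genes were higher in small intestine as well. Of 12 leukocyte markers, 5 were called higher in small intestine (Cd3e, Cd3g, Cd8a, Itgam and Ptprc) and 0 in colon, against 6.45% and 6.69% of all genes. Lyz2 was higher in colon by the intervals of both protocols. In the RNA fragmented pair 6 markers lay on each side, and only 9 of the 12 had at least 20 reads. Cd8a had 8.70 and 0.786 RPKM in small intestine and colon by cDNA fragmentation and 6.28 and 2.11 RPKM by RNA fragmentation. The pan-leukocyte gene Ptprc had 18.2, 4.36, 10.6 and 6.04 RPKM. The B cell genes Cd79a, Cd79b and Ms4a1 were lower in colon in the cDNA fragmented pair (-1.03, -0.92 and -1.26) and not in the RNA fragmented pair (0.06, 2.46 and 0.22). The summed level of the 12 markers was 226 and 146 RPKM in small intestine and colon by cDNA fragmentation, and 69.4 and 80.8 RPKM by RNA fragmentation. The highest single marker held 80.9 and 98.6 RPKM of the cDNA fragmented sums. No marker was at 0 in all libraries, and Cd3g alone had no read in the RNA fragmented colon library. Among 6 epithelial markers, Vil1 and Krt20 were called higher in small intestine, and Epcam (-0.66) and Cdh1 (-0.41) were not called. Krt8 (0.615) and Krt18 (1.04) were not called either, but were higher in colon by the intervals of both protocols. The part of these cells in the Psmb8 and Psmb9 difference was not tested.

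Promoters were searched for short motifs in RefSeq windows from 250 bases before to 50 after each start (GRCm38.p6), on both strands. Windows were matched for 40 of 48 members. An interferon-stimulated element core (GAAA and GAAA with any 2 bases between) was found in 5 of 40 members (12.5%) against 3.99% of 27025 genes, an antioxidant element core (TGACNNNGC) in 6 (15%) against 14%, a gamma-activated sequence (TTCNNNGAA) in 3 (7.5%) against 9.55%, and an NF-kB motif (GGGA and CCC with any 3 bases between) in 2 (5%) against 6.32%. The first motif was in Psmb3, Psmd4, Psmd9, Psme1 and Psmg4, of which Psmb3 also held the NF-kB motif and Psmd9 the antioxidant core, at other bases. The gamma-activated sequence was in Psmb8, Psmd2 and Psmg1, and it reads the same on both strands. Windows are printed for a gene higher in small intestine by either protocol with each interferon motif, and for both constitutive catalytic genes with an antioxidant core, the element through which Nrf1 acts. They were thus picked by tissue direction and do not link motif and tissue. Psmd2, Psmb3 and Psmd4 also hold an interferon motif and were higher in colon by both protocols. Of the 5 immunoproteasome and PA28 genes, only 1 held each interferon motif, and Psmb9 and Psmb10 held neither. Capitals mark the motif on the strand of the gene.
Psmb8, gamma-activated sequence: tcctccgctgTTCCCAGAAgatgccccccc
Psme1, interferon-stimulated element: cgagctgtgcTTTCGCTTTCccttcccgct
Psmb5, antioxidant element: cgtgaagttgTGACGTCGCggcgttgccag
Psmb6, antioxidant element: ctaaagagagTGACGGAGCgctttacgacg
The motif of Psmb8 begins 97 bases before the start (chr17:34198088-34198117, plus strand), that of Psme1 10 bases after it (chr14:55578493-55578522, plus strand, motif on the opposite strand), that of Psmb5 47 bases before (chr14:54618023-54618052, minus strand) and that of Psmb6 9 bases before (chr11:70525338-70525367, plus strand). No test was run on these counts, and a match is a run of letters, not a site.

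Levels of single genes were less alike between protocols than between tissues of a protocol. The highest mean log2 RPKM over the 4 libraries belonged to Psmb1, Psme2 and Psmb2. Psmb1 had 413 and 609 RPKM in small intestine and colon by cDNA fragmentation and 68.8 and 112 RPKM by RNA fragmentation, and Psmb2 had 321, 375, 58.0 and 98.8 RPKM. The lowest belonged to Psma8, Psmb11 and Psmd9. Psma8, the testis form, had 4 and 6 reads in the cDNA fragmented libraries (0.105 and 0.143 RPKM, beside the floor of 3 reads) and none by RNA fragmentation, all at or near the floor. Psmb11, which is known from thymic cortical epithelium, had 12, 21, 11 and 1 reads, and 6.1% of its 32-base stretches occur in other exon blocks, so its reads are uncertain.

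**Figure D4:**
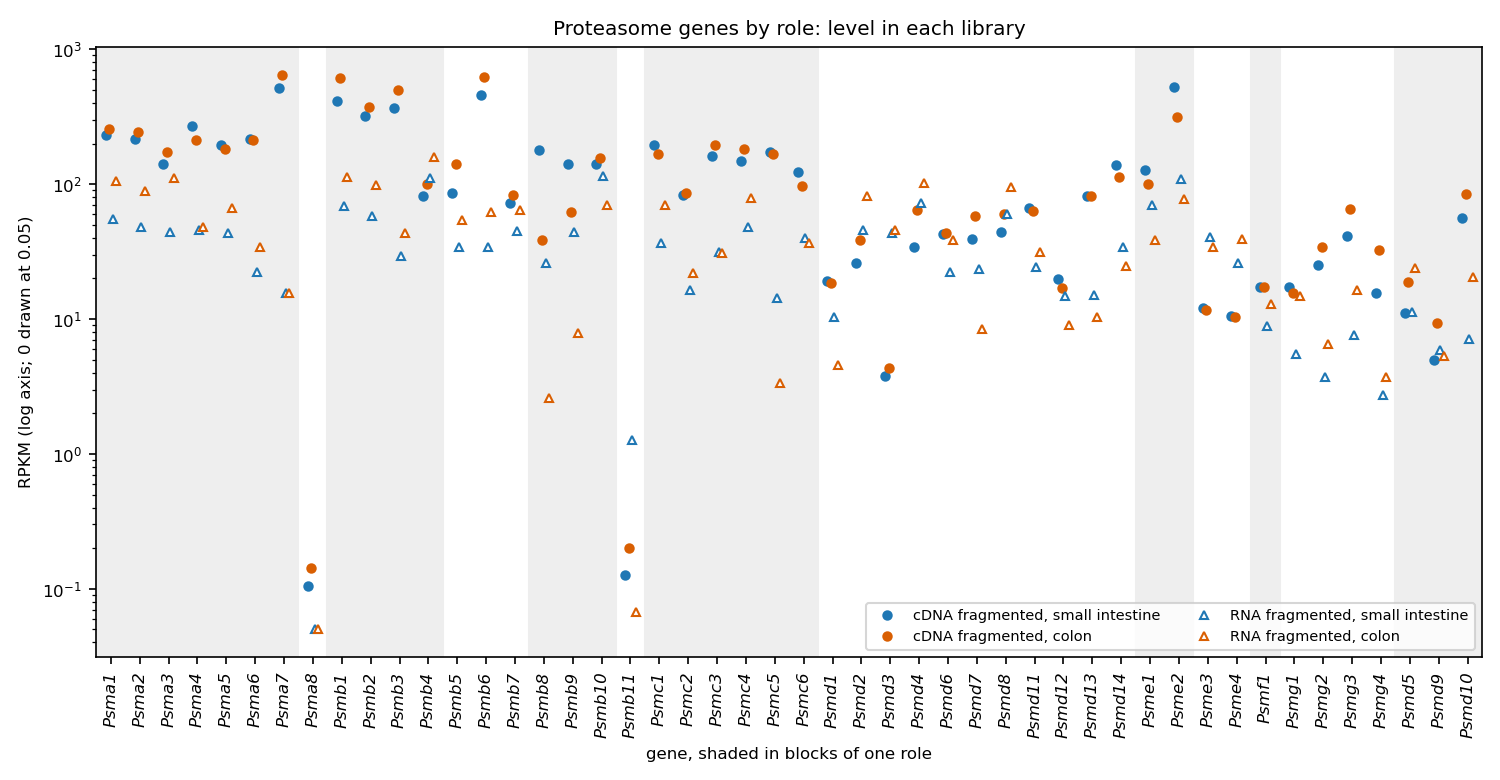
RPKM (log axis, 0 drawn at 0.05) of the 48 proteasome genes, ordered and shaded by role, in the cDNA fragmented (filled circles) and RNA fragmented (open triangles) libraries of small intestine (blue) and colon (orange). The blue circle lies well above the orange one for Psmb8 (180 and 38.8 RPKM) and Psmb9 (142 and 61.8 RPKM), and triangles lie below circles for most genes.

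Over the 47 genes read in every library, the log2 levels of both tissues had a Pearson correlation of 0.969 by cDNA fragmentation and 0.812 by RNA fragmentation, whereas correlations between protocols ran from 0.585 to 0.652. These are across genes, which share libraries and lengths and are not replicates. Within the constitutive core, whose subunits are present in equal number, the highest RPKM exceeded the lowest by 7.09-fold and 7.76-fold in the cDNA fragmented libraries and by 7.16-fold and 10.2-fold by RNA fragmentation. Of the 31 constitutive genes, 26 were lower by RNA fragmentation in either tissue, with a median log2 difference of -2.01 in small intestine and -1.43 in colon, while the median over all genes was 0.33 and 0.50.

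Psma7 and Psmd3 stood near the ends of these differences in both tissues. Psma7 had 515 and 648 RPKM by cDNA fragmentation and 15.6 and 15.7 RPKM by RNA fragmentation (-5.03 and -5.36 on the log2 scale). Psmd3 had 3.81 and 4.32 RPKM by cDNA fragmentation and 43.7 and 45.9 RPKM by RNA fragmentation (3.48 and 3.38). Psmb6 and Psmb3 followed Psma7 in small intestine (-3.73 and -3.63), Psmc5 preceded it and Psmb8 followed it in colon (-5.58 and -3.86, against -3.59 and -2.78 in small intestine), and the activators Psme3 (1.75 and 1.55) and Psme4 (1.30 and 1.92) came after Psmd3. In the cDNA fragmented libraries 62% and 69.1% of the Psmd3 reads lay in the last 25% of its exon length, against 22% and 19.5% by RNA fragmentation. Psme4, the long gene of the PA200 cap, resembled it with 62.8% and 73.5% against 23.6% and 27.3%. Over members with at least 50 reads the median share in the last 25% was 27.6% and 25.6% by cDNA fragmentation and 18.8% and 16.8% by RNA fragmentation.

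**Figure D5:**
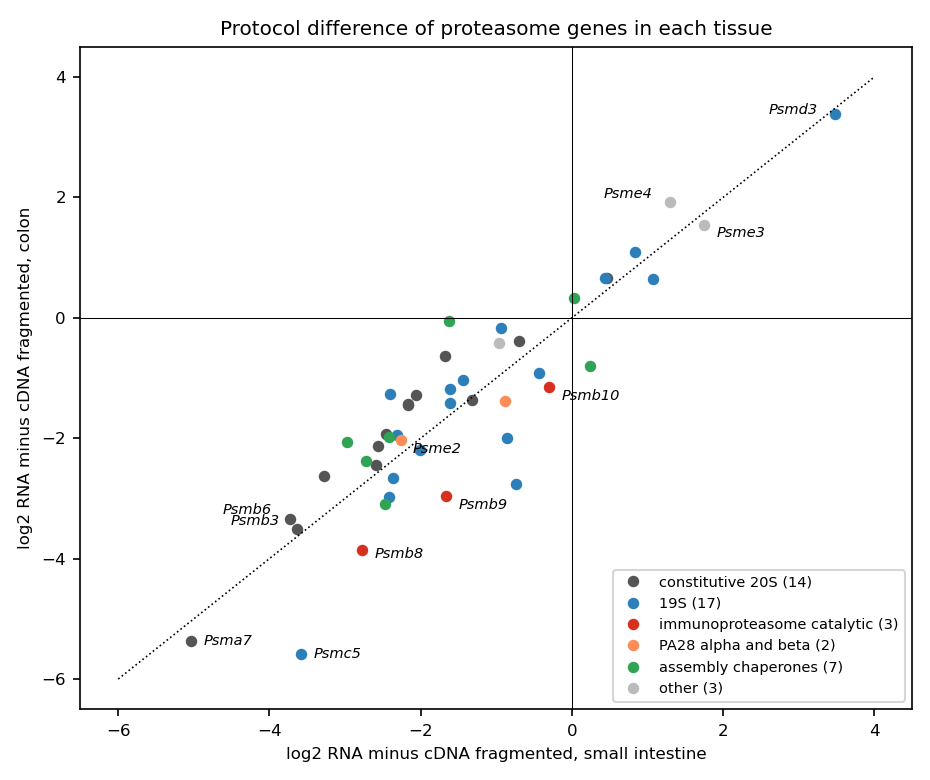
Log2 difference in RPKM between the RNA fragmented and the cDNA fragmented library, in small intestine (x axis) and in colon (y axis), of genes with at least 50 reads in each pair, coloured by role, with equality of both tissues dotted. The 46 genes spread from Psma7 (-5.03 and -5.36) to Psmd3 (3.48 and 3.38) along that line, and Psmb8, Psmb9 and Psmc5 are among those below it.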

How the data were processed

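Of the SOLiD libraries of the study 4 were analysed here. The authors matched 35 colors per read, with up to 3 mismatches, to RefSeq exons and exon-exon junctions of mm9. The deposited files hold, per library, the position and mismatch number of each uniquely placed read, tables of exon and junction positions, and the authors' matching report. They hold no count or RPKM per gene, and these were computed here. A read was given to an exon block with a tolerance of 3 bases at its borders, and blocks to genes by the mm9 gene models. RPKM, exact 95% Poisson intervals and conditional intervals of ratios, and log-scale normal intervals for ratios of ratios, were computed in Python 3.11.15 with NumPy 2.4.6, pandas 2.3.3 and SciPy 1.17.1, with genome sequence read by samtools 1.23.1. Trimmed-mean and median-of-ratios factors were computed from the same read numbers.

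The tissue difference was fitted over all genes with protocol and tissue as terms, by limma 3.58.1 (voom) in R 4.3.3 with Benjamini-Hochberg adjustment at 0.05. A planned count model was not run, and limma took its place on the reads counted here. The step was tested on simulated data, in which 200 of 200 genes changed 8-fold were recovered among 8224 genes, with 16 false calls. Recovery at smaller folds, such as the model's 6.55 for Psmb8 and 3.49 for Psmb9, was not tested. Plots were made with matplotlib 3.10.9.

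Named are the members past the 3-fold rule, past the 1.5-fold rule by both protocols or called by the model, and called genes of the pathway, leukocyte and epithelial lists. Also named are the catalytic and PA28 genes, Psma8 and Psmb11, the 3 highest and 3 lowest genes by mean log2 RPKM, and, in each tissue and protocol comparison, the 3 largest ratios each way among genes with at least 50 reads. Members past the 1.5-fold rule within a single protocol were counted and not all named. Psma4, Psma5, Psma6, Psmc1, Psmd2, Psmd14, Psmf1, Pomp, Nfe2l1, Uchl5, Ddi2, Calr, Pdia3, H2-K1, H2-D1, Tap2, Tapbp, Irf1, Ifngr1, Epcam, Cdh1, Krt8, Krt18, Lyz2, Cd79a, Cd79b and Ms4a1 were named after their values were seen. The members and gene lists were chosen with earlier results of these data known. Promoter windows were from RefSeq on GRCm38.p6, and their coordinates are not those of mm9. A result of the gene lists is not reported here.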

Additional observations from a re-analysis of the deposited data

Results flagged for a closer look

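In 4 of 45 genes, against 11.3% of all 11754 genes with enough reads, both counting intervals excluded equality but pointed to opposite tissues by protocol, on the log2 scale of colon over small intestine. Psma5, an alpha subunit, had -0.09 by cDNA fragmentation and 0.63 by RNA fragmentation. Psmb10 had 0.15 and -0.70. Psmc1, an ATPase of the cap, had -0.205 and 0.93. Psmd7, a non-ATPase subunit, had 0.57 and -1.46. Their share does not set the proteasome genes apart. With 1 library per tissue and protocol the difference between protocols was not tested. Copies elsewhere in the genome cover 60.7% of the 32-base stretches of Psma5, 41.6% of those of Psmc1 and 0% of those of Psmb10 and Psmd7. Psmb3 (76.5%) and Psmb5 (75.7%) had larger shares and were higher in colon by both protocols. The part of such copies was not tested.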

How the results depend on the processing

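On the log2 scale of colon over small intestine, the constitutive median of the cDNA fragmented pair (0.18) became -0.039 with trimmed means, -0.14 with the median of ratios, -0.069 with start points in place of reads and -0.058 when scaled to the 14 constitutive core genes. That of the RNA fragmented pair (0.52) became 0.20 with trimmed means, 0.18 with the median of ratios, 0.076 with start points and -0.13 scaled to the core genes. In the same order of 4 settings, the immunoproteasome median of the cDNA fragmented pair (-1.19) became -1.42, -1.52, -0.54 and -1.43, that of PA28 (-0.55) became -0.77, -0.87, -0.19 and -0.79, and Psmb10 (0.15) became -0.073, -0.176, -0.036 and -0.094. The PA28 median was -0.67 with sense reads, and in the RNA fragmented pair (-0.68) it was -1.003 with trimmed means, -1.02 with the median of ratios and -1.33 scaled to the core genes.

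With start points the small intestine over colon value of Psmb8 over Psmb5 was 2.19 (cDNA fragmented), and that of Psmb9 over Psmb6 was 1.41 and 4.81. A start point counts once by construction. With possible start points as length, Psmb8 over Psmb5 was 2.22 in the cDNA fragmented small intestine library, while Psmb9 over Psmb6 was 0.334 and 0.106 and Psmb10 over Psmb7 was 1.79 and 1.72 in small intestine and colon.

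Of the 4 genes past 1.5-fold towards colon by both protocols, 0 passed with trimmed means (against 17.1% of 11754 genes), with the median of ratios (15.5%) or at 2-fold (13.6%), and 1 (Psmd5) with start points (18.9%). Towards small intestine, 5 genes passed with the median of ratios (Psmb8, Psmb9, Psmd14, Psme1 and Psme2, against 13.1% of all genes) and 1 (Psmb8) with start points (6.74%), which also left 1 limma call (6.5%). Over the alternatives, limma adjusted p ran from 0.00045 to 0.039 for Psmb8 and from 0.0055 to 0.098 for Psmb9. Scaling to the core genes, possible start points and limma on log2 RPKM were chosen after seeing the data. The planned count-model fits were not run. The labels give no replicate numbers, so no block on them was fitted beyond the protocol term of the model, and leaving out a library was not run because each group holds 1 and no residual degree of freedom would be left.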
